A study of Homo sapiens with 12 samples.

Results

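The ETS family is a group of transcription factors that share a DNA-binding domain, the ETS domain, which recognises a short core of GGAA or GGAT. The 10 genes followed here, of 28 ETS family genes and of 60106 genes in all, were ERG, ETV1, ETV4, ETV5, ETS1, ETS2, ELF3, EHF, SPDEF and FLI1. They were taken by gene name from the count tables, in which each name matched 1 gene. RNA was sequenced from PC3 and VCaP, 2 established human prostate cancer cell lines, 72 hours after transfection with an siRNA against FOXA1 (siFOXA1) or a non-targeting siRNA (NSI). FOXA1 is a forkhead transcription factor of the luminal prostate lineage. There were 3 libraries in each of the 4 groups. PC3, a line from a bone metastasis, was kept in RPMI medium, received 20 nM siRNA and was sequenced as polyadenylated RNA. VCaP, a line from a vertebral metastasis that has a rearranged ERG gene, was kept in DMEM, received 40 nM siRNA and was sequenced as total RNA. Each line stands for a single tumour, and the line cannot be told apart from the dose, the medium, the library kit and the strand setting of the read counting. Nothing in the labels says that the replicates came from separate cultures, so p-values measure only the spread between these libraries.

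In prostate cancer, ETS genes are best known through chromosomal rearrangement. The promoter of an androgen-responsive gene, most often TMPRSS2, is joined to ERG, or less often to ETV1, ETV4 or ETV5, and the ETS gene is then expressed in the tumour cells. The family also holds factors with other roles: ETS1 and ETS2 are activated by the RAS and ERK pathway, and ELF3, EHF and SPDEF are epithelial factors found in glandular tissue. FLI1 is a close relative of ERG that is active in endothelial and blood cells.

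The PC3 libraries held 123140099 to 188226483 counts and the VCaP libraries 48187047 to 59839211. FOXA1, the siRNA target, was at 300.9, 242 and 263 CPM (counts per 1e6 counts, scaled with TMM factors over all 12 libraries) in PC3 NSI and at 168, 183 and 167 CPM in PC3 siFOXA1. In VCaP it was at 448, 458 and 539 CPM in NSI and at 85.8, 73.6 and 83.5 CPM in siFOXA1. Every siFOXA1 library was below every NSI library in both lines, and 64.2% of the NSI mean was left in PC3 against 16.8% in VCaP. The log2 fold change was −0.65 (SE 0.10, adjusted p 0.0022) in PC3 and −2.60 (SE 0.09, adjusted p 1.84e-07) in VCaP. Of the luminal markers, KLK3 was below 0.2 CPM in every PC3 library, while KRT8 was above 100 CPM in all 12 libraries. The summed level of 6 blood cell markers was 0.67 to 0.85 CPM over the PC3 libraries, 0.86 to 1.18 CPM in VCaP NSI and 2.42 to 3.26 CPM in VCaP siFOXA1, where CD14 was the 1 marker tested and was called higher (log2 1.97, SE 0.18). CD14 went from 0.763, 0.683 and 0.620 CPM in VCaP NSI to 3.00, 2.24 and 2.98 CPM in VCaP siFOXA1. PTPRC, another of the 6 and too low to be tested there, went the other way. It was at 0.118, 0.117 and 0.0948 CPM in VCaP NSI and at 0, 0.0398 and 0.0119 CPM in VCaP siFOXA1. The part of these marker changes in the VCaP changes below was not tested. The sum of 3 basal markers was 0.49 to 0.75 CPM over the PC3 libraries, 1.66 to 3.12 CPM in VCaP NSI and 1.02 to 1.56 CPM in VCaP siFOXA1. KRT14, the 1 basal marker tested in VCaP, was called lower (log2 −0.94), a call lost under 2 of 14 alternatives.

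Without the FOXA1 siRNA the lines used different ETS genes. PC3 expressed the 3 closely related genes ETV4, ETV5 and ETV1 together with SPDEF and ETS1, whereas VCaP expressed SPDEF, EHF and ERG. To compare genes with each other, levels were divided by the exon length in the deposited tables (FPKM, CPM per kilobase). In PC3 NSI the mean FPKM was 71.2 for ETV4, 46.6 for SPDEF, 29.8 for ETV5, 29.6 for ETS1 and 10.6 for ETV1. It was 8.55 for ELF3, 5.41 for ETS2, 0.284 for EHF, 0.117 for FLI1 and 0.0055 for ERG. The 3 values of ETV5 and of ETS1 overlapped, and no other neighbours in this order overlapped. Over all 28 ETS genes in PC3 NSI, ELK1 had rank 3 at 31.2 FPKM and ETV1 had rank 10.

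In VCaP NSI the order was another one. SPDEF led at 91.6 FPKM, followed by EHF at 57.5, ERG at 43.4, ELF3 at 5.64, ETS2 at 1.23 and ETS1 at 0.278. The remaining 4 genes were near 0, at 0.0242 FPKM for ETV4, 0.0201 for ETV5, 0.0068 for ETV1 and 0.0014 for FLI1. Among these, ETV4 overlapped with ETV5 and ETV1 overlapped with FLI1, and no other neighbours in the order overlapped.

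**Figure D1:**
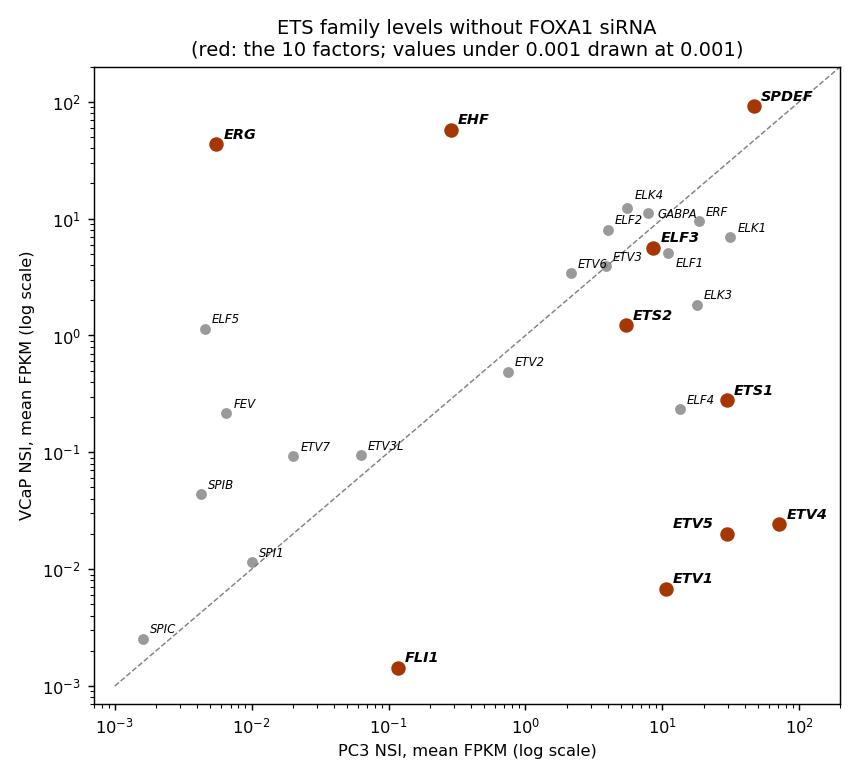
Mean FPKM of 28 ETS family genes in PC3 NSI (horizontal, log scale) and VCaP NSI (vertical, log scale), each the mean of 3 libraries, with the 10 factors followed here in red and the other 18 in grey. The dashed line marks equal levels: ERG and EHF lie far above it, and ETV1, ETV4, ETV5, ETS1 and FLI1 far below it.

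All 10 genes differed between the lines at an adjusted p under 0.05, 3 higher and 7 lower in VCaP. In that comparison 87% of the 28132 genes tested were called, 42.4% higher and 44.6% lower in VCaP, with non-overlapping groups in 43.1% higher and 45.6% lower, so being called says little and the size of the difference carries the description. The 10 genes were non-overlapping as well, 3 higher and 7 lower. Upper-quartile scaling moved the median log2 difference of all genes from −0.07 to 0.22, a small shift beside most of the differences below. Log2 values for genes near 0 in one line include a small prior count, so ratios of mean CPM with a 95% counting interval are given for them.

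ERG, whose protein drives the TMPRSS2-ERG subtype of prostate cancer, was at 222, 251 and 229 CPM in VCaP NSI. The PC3 NSI libraries held 4, 1 and 10.17 counts of ERG, or 0.0269, 0.0071 and 0.0551 CPM. The VCaP level was 7876 times the PC3 level (counting interval 4472 to 13183), with no overlap. ERG lies on chromosome 21 (39751949 to 40033704, minus strand, GRCh37). TMPRSS2, a protease gene on the same strand, is 2802.8 kb away with 15 protein-coding genes between them, and it was at 115, 120 and 110 CPM in VCaP NSI and at 0.309, 0.413 and 0.341 CPM in PC3 NSI. Both genes were therefore at over 100 CPM in VCaP NSI and under 0.5 CPM in PC3 NSI. The counts are sums over all exons of a gene, so transcripts of a fusion cannot be told apart from transcripts of an unaltered copy.

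ETV1, ETV4 and ETV5 form the PEA3 subfamily, whose proteins act downstream of receptor tyrosine kinases. In PC3 NSI the 3 libraries gave 85.2, 73.1 and 86.7 CPM for ETV1, 193, 209 and 196 CPM for ETV4, and 138, 112 and 137 CPM for ETV5. Over the 3 VCaP NSI libraries together there were 8.5 counts of ETV1, 11 of ETV4 and 14.03 of ETV5, and no VCaP NSI library reached 0.2 CPM for any of them. The PC3 level was 1563 times the VCaP level for ETV1 (counting interval 847 to 3865), 2942 times for ETV4 (1542 to 5215) and 1487 times for ETV5 (899.6 to 2761). The 3 genes are on chromosomes 7, 17 and 3, so they share no locus. Together they made up 35.1% ± 1.65 (SD, n = 3) of the summed FPKM of all 28 ETS genes in PC3 NSI.

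ETS1, the founding member of the family, was at 179.9, 137 and 175 CPM in PC3 NSI and at 1.59, 1.83 and 1.21 CPM in VCaP NSI, a ratio of 106 in favour of PC3. ETS2, its closest relative, was at 21.4, 23.5 and 21.3 CPM in PC3 NSI and at 4.65, 4.83 and 5.55 CPM in VCaP NSI, a ratio of 4.40. FLI1 had 75, 81 and 92.67 counts in the PC3 NSI libraries and 0, 1 and 0 in the VCaP NSI libraries. Its ratio of 81.1 in favour of PC3 rested on 1 count in VCaP and had a counting interval of 15.2 to 3385. The endothelial markers, which share a cell type with FLI1, summed to 24.2 to 33.9 CPM in PC3 NSI and 4.02 to 4.71 CPM in VCaP NSI, over the 5 of 6 markers that were matched. Nearly all of the PC3 sum was KDR (33.2, 23.6 and 29.0 CPM), and nearly all of the VCaP sum was VWF (4.33, 4.45 and 3.89 CPM). The markers disagreed: VWF was called higher in VCaP, and KDR and TEK were called lower.

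Among the epithelial factors, EHF differed most. It was at 1.25, 0.962 and 1.15 CPM in PC3 NSI and at 224, 244 and 214 CPM in VCaP NSI, a ratio of 203 in favour of VCaP (log2 difference 7.67, SE 0.15, adjusted p 4.40e-12). SPDEF was at 86.6, 87.3 and 93.9 CPM in PC3 NSI and at 186, 155 and 185 CPM in VCaP NSI. Its log2 difference was 0.98 (SE 0.11, adjusted p 3.48e-06). ELF3, a regulator of epithelial differentiation, was at 51.5, 50.7 and 56.1 CPM in PC3 NSI and at 37.5, 33.0 and 33.9 CPM in VCaP NSI, a log2 difference of −0.59 (SE 0.10, adjusted p 1.32e-04). SPDEF and ELF3 were thus the 2 genes of the 10 with the smallest differences between the lines.

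With the FOXA1 siRNA in PC3, SPDEF, ELF3 and ETV4 fell and FLI1 and EHF rose. Of the 10 genes, 9 had enough counts to be tested, and 5 were called, 2 higher and 3 lower. Over all 26435 genes tested in PC3, 27% were called, 15% higher and 12.1% lower. ERG, with 1.83 to 12 counts per siFOXA1 library, was not tested. In 2 genes every siFOXA1 value was above every NSI value, and in 4, ETS2 included, every value was below, beside 24.4% and 20.2% of all genes tested. The 2 genes that rose were the 2 lowest of those tested, and the genes that fell were among the well-expressed ones. The median log2 change was −0.15 over the 9 genes and 0.02 over all genes tested.

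In VCaP, SPDEF fell far more with the FOXA1 siRNA and ETS2 rose, with smaller rises of ETS1 and EHF. Only 6 of the 10 genes had enough counts to be tested, and 4 were called, 3 higher and 1 lower. Over all 22925 genes tested in VCaP, 45.8% were called, 22.5% higher and 23.3% lower. Every siFOXA1 value was above every NSI value in 3 genes and below in 1, beside 30.3% and 25.7% of all genes tested. The counts of ETV1, ETV4, ETV5 and FLI1 were too low. FLI1 had 0 counts in all 3 VCaP siFOXA1 libraries, which allows up to 3 counts over the group. The calls of ETS1 and EHF were each lost without NSI replicate 1, NSI replicate 3 or siFOXA1 replicate 2, so that 2 of the 6 genes were then called, SPDEF and ETS2.

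**Figure D2:**
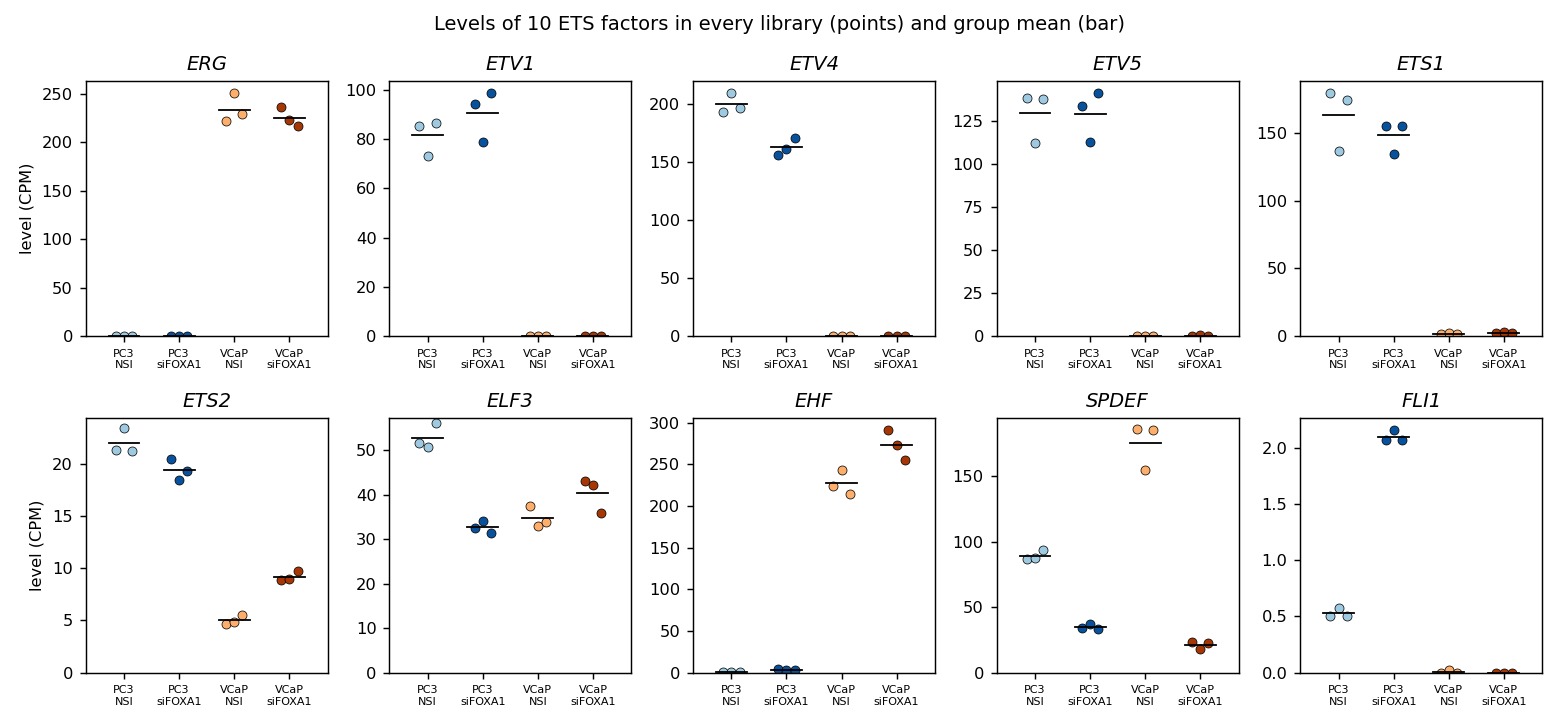
Level of each of the 10 ETS genes in CPM (linear scale starting at 0, a separate scale for each gene) in the 3 libraries (points) of each of the 4 groups, with the group mean as a bar. SPDEF is lower in siFOXA1 than in NSI in both lines, FLI1 rises from about 0.5 to about 2.1 CPM in PC3, and ERG in VCaP overlaps between NSI and siFOXA1.

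SPDEF is known in secretory epithelia as a factor of goblet and luminal cells. Its level fell from 86.6, 87.3 and 93.9 CPM in PC3 NSI to 34.0, 37.5 and 33.3 CPM in PC3 siFOXA1. The fall in VCaP was from 186, 155 and 185 CPM to 23.3, 17.9 and 22.8 CPM. No siFOXA1 library overlapped an NSI library in either line. The SPDEF level left was 39.1% of the NSI mean in PC3 and 12.2% in VCaP. The log2 fold change was −1.36 (SE 0.09, adjusted p 2.64e-05) in PC3 and −3.07 (SE 0.12, adjusted p 2.17e-07) in VCaP. The difference between the lines, −1.68 (SE 0.15, adjusted p 1.40e-06), passed the test of the interaction, which called 22.2% of 30425 genes. FOXA1 itself also fell further in VCaP, with a difference of −1.93 (SE 0.15, adjusted p 3.13e-07) in the same fit.

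The DNA just before the start of a gene was examined for words that FOXA1 or ETS proteins are known to bind, using 250 bases upstream of each start in a RefSeq promoter table (GRCh38.p14), placed on GRCh37 by exact match. Of the 10 genes, 6 with 16 promoters were in the table, and ETV4, ETV5, ETS1 and FLI1 were not. The forkhead words searched on both strands were TGTTTAC, its variant TATTTAC, the word TGTTGAC and its variant TATTGAC, which occurred in 8.13% of all 35116 promoters. They occurred in 2 of the 16 promoters, those of SPDEF and of 1 of the 2 starts of EHF. The ETS words CCGGAAGT, CAGGAAGT, CCGGAAAT and CAGGAAAT occurred in 8.18% of all promoters and in 1 of the 16, that of an ELF3 start inside the gene, whose 250 bases all lie in exons of ELF3 itself. The promoter of SPDEF is shown because SPDEF had the largest fall in both lines. The promoter at the other EHF start, which held none of these words, is shown beside it because EHF was called higher in both lines. The EHF window that held a word is not shown, since 102 of its 250 bases lie in exons of EHF itself. Capitals mark the forkhead word, which in SPDEF reads TATTTAC on the strand opposite to the gene, 49 to 43 bases before the start.
SPDEF promoter (chr6:34524107-34524356, GRCh37, minus strand): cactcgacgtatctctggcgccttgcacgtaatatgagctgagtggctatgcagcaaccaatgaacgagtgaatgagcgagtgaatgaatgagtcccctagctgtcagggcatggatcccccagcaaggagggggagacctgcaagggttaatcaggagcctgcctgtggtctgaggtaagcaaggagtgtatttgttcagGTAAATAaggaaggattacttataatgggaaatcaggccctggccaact
EHF promoter (chr11:34645554-34645803, GRCh37, plus strand): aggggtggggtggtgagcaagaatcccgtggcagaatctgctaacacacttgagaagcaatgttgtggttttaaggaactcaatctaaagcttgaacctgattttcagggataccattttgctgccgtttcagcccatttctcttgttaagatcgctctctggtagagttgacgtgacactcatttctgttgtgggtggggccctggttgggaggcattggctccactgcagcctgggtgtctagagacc
A word in these windows is a description of letters and no evidence of binding, and distant enhancers were not examined.

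EHF, a factor of differentiated glandular epithelium, rose in PC3 from 1.25, 0.962 and 1.15 CPM in NSI to 3.80, 3.16 and 3.69 CPM in siFOXA1. This 3.16-fold rise (log2 1.65, SE 0.15, adjusted p 1.14e-04) left EHF at 0.898 FPKM, far below its level in VCaP. In VCaP the NSI libraries were at 224, 244 and 214 CPM and the siFOXA1 libraries at 291, 273 and 255 CPM. The VCaP groups did not overlap, and the log2 fold change was 0.23 (SE 0.08, adjusted p 0.037). That call was lost under 6 of 14 alternatives, among them scaling by library size alone, with adjusted p-values from 0.0163 to 0.140. The change in EHF was smaller in VCaP than in PC3 on the log2 scale, by −1.40 (SE 0.15, adjusted p 8.35e-06), although the CPM difference was larger in VCaP.

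ELF3, which binds a motif much like that of EHF, moved the other way in PC3. The NSI libraries were at 51.5, 50.7 and 56.1 CPM and the siFOXA1 libraries at 32.6, 34.0 and 31.4 CPM, without overlap, and the log2 fold change came to −0.70 (SE 0.09, adjusted p 6.74e-04). In VCaP ELF3 was at 37.5, 33.0 and 33.9 CPM in NSI and at 43.0, 42.1 and 35.9 CPM in siFOXA1. The VCaP groups overlapped, and the log2 value of 0.18 (SE 0.08) did not pass, with an adjusted p of 0.104. The 2 lines differed in ELF3 by 0.91 (SE 0.12, adjusted p 8.36e-05). With upper-quartile scaling, with the replicate number as a block, or without siFOXA1 replicate 3, ELF3 was called higher in VCaP (log2 0.23, 0.18 and 0.26). Of the ELF3 exon length, 7.27% is overlapped by exons of a gene read in the same direction and 8.97% by those of an antisense gene, and counting in PC3 was unstranded.

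ETS1 and ETS2 differed between the lines in their response. ETS1 was at 179.9, 137 and 175 CPM in PC3 NSI and at 155, 135 and 156 CPM in PC3 siFOXA1, overlapping ranges with a log2 value of −0.15 (SE 0.11, adjusted p 0.340). In VCaP it was at 1.59, 1.83 and 1.21 CPM in NSI and at 2.13, 2.66 and 2.26 CPM in siFOXA1, non-overlapping but low, with 70 to 133.5 counts per library. The VCaP log2 fold change of ETS1 was 0.58 (SE 0.18, adjusted p 0.024), and the difference between the lines was 0.76 (SE 0.21, adjusted p 0.0163). That difference was lost without any 1 of 5 libraries: PC3 NSI replicate 1 or 3, PC3 siFOXA1 replicate 2, VCaP NSI replicate 3 or VCaP siFOXA1 replicate 2, with log2 values of 0.60 to 0.66.

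ETS2 was at 21.4, 23.5 and 21.3 CPM in PC3 NSI and at 20.5, 18.5 and 19.3 CPM in PC3 siFOXA1. Every siFOXA1 library of PC3 was below every NSI library, but the log2 value of −0.20 (SE 0.09) had an adjusted p of 0.146. In VCaP ETS2 rose from 4.65, 4.83 and 5.55 CPM to 8.86, 8.94 and 9.73 CPM, 1.83-fold and without overlap. Its log2 fold change there was 0.84 (SE 0.10, adjusted p 1.08e-04), and the difference between the lines was 1.05 (SE 0.13, adjusted p 3.28e-05). ETS2 was called in VCaP under all 14 alternatives.

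**Figure D3:**
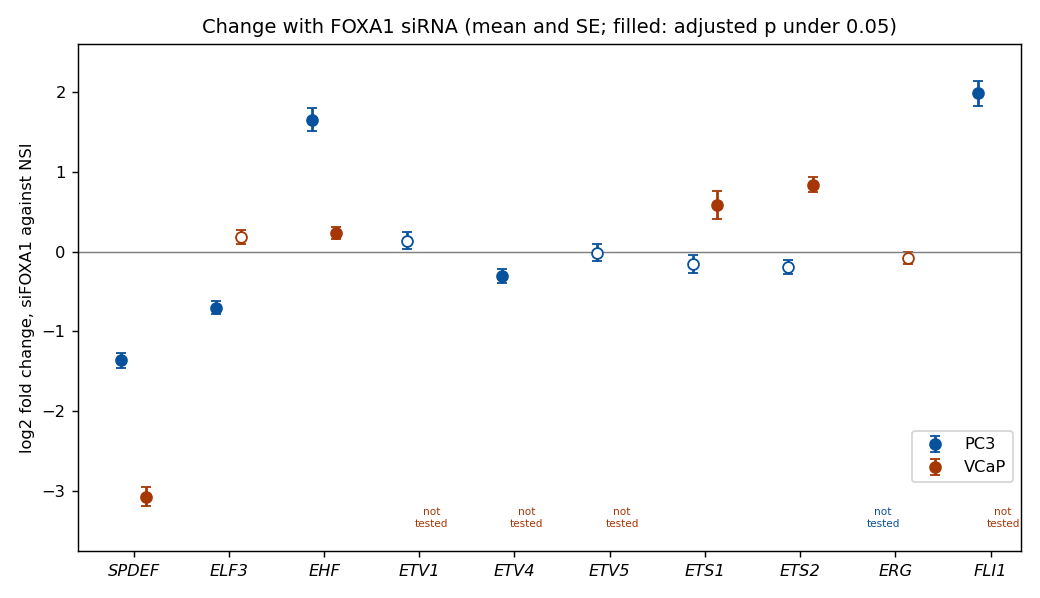
Log2 fold change of siFOXA1 against NSI for each of the 10 genes in PC3 (blue) and VCaP (orange), with the SE of the fit on 3 against 3 libraries as bars. Filled points passed an adjusted p under 0.05, open points did not, and genes with too few counts are marked as not tested: SPDEF is the only one of the 10 that was called lower in both lines.

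Of the PEA3 genes, ETV4 alone was called in PC3. ETV4 was at 193, 209 and 196 CPM in NSI and at 156, 161 and 170 CPM in siFOXA1, without overlap, and its log2 fold change was −0.31 (SE 0.09, adjusted p 0.028). This call was lost with library size alone as scaling (log2 −0.25, adjusted p 0.0571), without NSI replicate 3 (adjusted p 0.0762) and without siFOXA1 replicate 1 (adjusted p 0.133). ETV1 was at 94.1, 78.9 and 98.7 CPM in siFOXA1, overlapping its NSI values, with a log2 value of 0.14 (SE 0.10, adjusted p 0.354). ETV5 was at 133, 113 and 141 CPM in siFOXA1, over nearly the same range as in NSI, with a log2 value of −0.01 (SE 0.11, adjusted p 0.943) whose sign changed under 5 alternatives. In the siFOXA1 libraries of VCaP the counts of the 3 genes stayed at 1 to 13.5 per library.

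FLI1 had the largest fold rise of the 9 genes tested in PC3, from 0.504, 0.577 and 0.502 CPM in NSI to 2.07, 2.16 and 2.07 CPM in siFOXA1. All 3 siFOXA1 libraries lay above all 3 NSI libraries. The rise was 3.98-fold (log2 1.98, SE 0.15, adjusted p 5.65e-05), to a level of 0.465 FPKM. An antisense gene overlaps 3.70% of the FLI1 exon length, and the unstranded PC3 counts cannot separate the 2. Beside this rise, 0 of the 5 endothelial markers tested in PC3 were called, and their summed level was 21.7 to 27.0 CPM in siFOXA1. KDR held nearly all of this sum. Of 6 blood cell markers, 3 were tested in PC3 and 2 were called higher, both from very low levels, beside 15% of all genes. PTPRC, the leukocyte antigen CD45, was at 0.0071 to 0.0538 CPM in NSI and 0.0956 to 0.123 CPM in siFOXA1 (log2 2.20, SE 0.62, adjusted p 0.0311), and CD14, a monocyte receptor, at 0.158 to 0.214 CPM and then 0.319 to 0.348 CPM (log2 0.77, SE 0.24, adjusted p 0.045). These calls were lost under 5 (PTPRC) and 8 (CD14) of 14 alternatives. The other marker tested, CD79A, was not called. Its siFOXA1 values of 0.274, 0.397 and 0.283 CPM were all below its NSI values of 0.581, 0.556 and 0.400 CPM. A sum over the 6 mixes both directions. The summed level of the 6 was 0.67 to 0.85 CPM in PC3 NSI and 0.75 to 0.81 CPM in PC3 siFOXA1, and the part of these cell types in the rise of FLI1 was not tested. In a bulk sample, a change in RNA per cell and a change in the number of cells that express the gene cannot be told apart.

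Genes of the interferon response moved with siFOXA1 in PC3 as well. All 20 of a list of interferon-induced genes were called higher in PC3, beside 15% of all genes, with a median log2 fold change of 3.58. Their summed level went from a range of 892 to 1176 CPM in NSI to one of 8158 to 8551 CPM in siFOXA1. In VCaP 10 of the 17 tested were called higher and 3 lower, beside 22.5% and 23.3% of all genes, with a median of 0.63. The part of the interferon response in the changes of FLI1, EHF, ELF3, ETV4 and SPDEF in PC3 was not tested.

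ERG in VCaP was at 222, 251 and 229 CPM in NSI and at 236, 223 and 217 CPM in siFOXA1. The ranges overlapped, and the log2 value was −0.08 (SE 0.07, adjusted p 0.373), between −0.13 and −0.04 over 14 alternatives, none of which called it. TMPRSS2 was at 115, 120 and 110 CPM in VCaP NSI and at 109, 105 and 93.2 CPM in siFOXA1, with all siFOXA1 libraries below all NSI libraries. Its log2 fold change of −0.21 (SE 0.07, adjusted p 0.0474) passed, but was lost under 8 of 14 alternatives. A difference between the changes of ERG and TMPRSS2 was not tested. Of 9 genes known as fusion partners upstream of ETS genes, TMPRSS2 included, 5 were called lower and 2 higher in VCaP, beside 23.3% lower and 22.5% higher of all genes. SLC45A3, a prostate solute carrier, fell by 2.86 on the log2 scale (SE 0.12), KLK2, an androgen-regulated kallikrein, by 1.05 (SE 0.13) and ACSL3, a fatty acid ligase, by 0.91 (SE 0.09). NDRG1 rose by 0.53 (SE 0.07) and HERPUD1 by 0.20 (SE 0.07), the latter lost under 7 of 14 alternatives. In PC3 1 of the 8 tested was called, beside 27% of all genes. It was CANT1, a nucleotidase gene, at −0.40 (SE 0.09), and its call was lost without NSI replicate 3 (adjusted p 0.0511).

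The make-up of the family's transcripts shifted with the fall of SPDEF. SPDEF made up 34.6% ± 3.07 (SD, n = 3) of the summed FPKM of the 28 ETS genes in VCaP NSI and 5.53% ± 0.722 in VCaP siFOXA1. The share of EHF was 21.8% ± 1.72 and then 34.3% ± 1.34, and that of ERG 16.4% ± 1.28 and then 20.8% ± 0.290. EHF replaced SPDEF as the ETS gene with the highest FPKM. In PC3 the share of SPDEF was 14.7% ± 0.777 in NSI and 6.85% ± 0.666 in siFOXA1, and ETV4 remained the leading gene at 22.4% ± 2.32 and 21.7% ± 1.12. The 10 genes together held 63.6% ± 1.75 of the family total in PC3 NSI, 58.4% ± 1.26 in PC3 siFOXA1, 75.5% ± 0.593 in VCaP NSI and 65.2% ± 1.54 in VCaP siFOXA1. A share rises when another gene falls, so the share of ERG is no sign of a change in its own level.

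**Figure D4:**
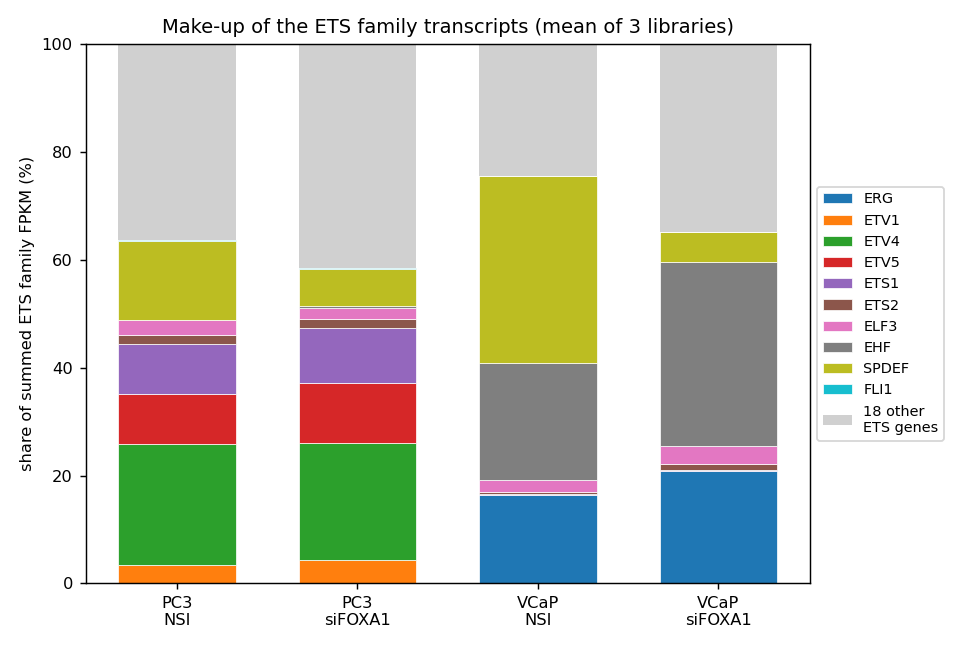
Share of each of the 10 ETS genes (colours) and of the other 18 (light grey) in the summed FPKM of the family, as stacked bars of the mean of 3 libraries in each of the 4 groups. The SPDEF segment shrinks from 34.6% to 5.53% in VCaP and from 14.7% to 6.85% in PC3.

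Of the other 18 ETS genes, 13 were tested in PC3, where 1 was called higher and 2 lower, beside 27% of all genes called. ETV7, an interferon-inducible ETS repressor, was at 0.0235, 0.107 and 0.0126 CPM in NSI and at 0.435, 0.456 and 0.364 CPM in siFOXA1 (log2 3.15, SE 0.57, adjusted p 0.00502). ELF2 (log2 −0.35, SE 0.09) and GABPA (−0.25, SE 0.08), both widely expressed activators, fell slightly, and these calls were lost under 4 and 8 of 14 alternatives. ELF5, FEV, SPI1, SPIB and SPIC had too few counts. In VCaP 15 were tested, 4 were called higher and 1 lower, beside 45.8% of all genes called. ELF1, a widely expressed factor, rose from 16.9, 19.0 and 18.6 CPM to 37.5, 38.9 and 42.3 CPM (log2 1.09, SE 0.07, adjusted p 3.15e-06). ELF4 rose by 0.65 (SE 0.17), ETV3 by 0.43 (SE 0.06) and ELF5 by 0.43 (SE 0.13) on the log2 scale, the ELF5 call being lost under 4 of 14 alternatives. ERF, an ERK-regulated repressor, fell by 0.60 (SE 0.07). SPI1, SPIB and SPIC were not tested.

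Several of the 10 genes are neighbours in the genome. ERG and ETS2 lie 143.5 kb apart on chromosome 21 on opposite strands, ETS1 and FLI1 99.0 kb apart on chromosome 11, and EHF and ELF5 107.3 kb apart on chromosome 11, with no protein-coding gene between the members of each pair. The neighbours did not always share a pattern. ERG was 7876 times higher in VCaP while ETS2 was 4.40 times higher in PC3, and in VCaP ETS2 was called higher with siFOXA1 while ERG was not called. ETS1 and FLI1 were both far lower in VCaP, and in PC3 FLI1 rose while ETS1 was not called. EHF and ELF5 were both higher in VCaP (log2 7.67 and 7.85), and both were called higher there with siFOXA1 (0.23 and 0.43). Whether the changes of neighbouring genes differ was not tested.

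The ERK pathway phosphorylates several ETS proteins and switches on feedback genes, many of them through ETS factors. Of 16 such feedback and output genes, 14 were called lower and 2 higher in VCaP NSI than in PC3 NSI. Over all genes 44.6% were called lower and 42.4% higher. With siFOXA1 in PC3, 2 of the 16 were called higher and 6 lower, beside 15% and 12.1% of all genes. DUSP6, an ERK phosphatase, rose by 0.61 (SE 0.08) and SPRY1 by 0.33 (SE 0.09), whereas DUSP4 fell by 0.87 (SE 0.09), DUSP5 by 0.86 (SE 0.09) and SPRED1, an inhibitor of RAS signalling, by 0.70 (SE 0.13), all on the log2 scale. The SPRY1 call was lost under 5 of 14 alternatives, with an adjusted p of up to 0.129. In VCaP 5 of 14 were called higher and 6 lower, beside 22.5% and 23.3% of all genes, and the 3 phosphatases moved against their direction in PC3. DUSP5 rose by 3.74 (SE 0.15), PHLDA1 by 1.95 (SE 0.15) and DUSP4 by 1.55 (SE 0.07), while SPRY4 fell by 3.60 (SE 0.40), SPRED1 by 2.24 (SE 0.12) and DUSP6 by 2.15 (SE 0.24). The interaction was 2.44 (SE 0.13) for DUSP4 and −2.74 (SE 0.22) for DUSP6. DUSP6 was at only 1.31 to 2.03 CPM in VCaP NSI, against 184 to 207 CPM in PC3 NSI. Also low in VCaP NSI were DUSP5 (1.07 to 1.35 CPM), SPRY4 (1.72 to 3.69), PHLDA1 (2.81 to 3.56) and SPRED1 (3.85 to 4.19). In PC3 NSI these were at 109 to 125, 128 to 166, 686 to 711 and 105 to 133 CPM.

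Among genes reported to differ in ERG-rearranged tumours, 8 of 12 were called higher and 4 lower in VCaP NSI than in PC3 NSI. Over all genes 42.4% were called higher and 44.6% lower. The 4 lower were PLAU, CXCR4, SOX9 and PLAT. The median log2 difference was 7.31 over the 12 and −0.07 over all genes. In VCaP siFOXA1 5 of the 10 tested were called, beside 45.8% of all genes. The 3 called higher were PLA1A (log2 1.16, SE 0.08), CRISP3 (0.76, SE 0.09) and KCNS3 (0.35, SE 0.08), and the 2 called lower were HLA-DMB (−1.07, SE 0.08) and NCALD (−0.35, SE 0.09), the latter lost in a single fit of all 12 libraries (adjusted p 0.145). In PC3, where ERG was near 0, 4 of 7 were called higher and none lower, beside 15% and 12.1% of all genes. These included PLAT (log2 2.61, SE 0.10) and PLAU (1.83, SE 0.11), the plasminogen activators, PLAU being a known target of ETS factors, and PLA1A, a phospholipase (2.05, SE 0.23).

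Genes that control ETS proteins or the RNA of ETS genes were examined as a list of 14. It included the ubiquitin ligase components that degrade ERG and the ETV proteins, and the repressor CIC. In PC3 1 was called higher and 2 lower, beside 27% of all genes called. CIC, which represses ETV1, ETV4 and ETV5, was called higher (log2 0.46, SE 0.13), and TRIB2, an adaptor of the COP1 ubiquitin ligase (−0.34, SE 0.09), and SPOP (−0.27, SE 0.08) lower. SPOP, whose protein marks ERG for degradation, lost its call under 7 of 14 alternatives, CIC under 4 and TRIB2 under 3. In VCaP 3 were called, beside 45.8% of all genes: TRIB2 rose by 1.66 (SE 0.09) and FBXW7 by 0.34 (SE 0.07), while TRIB1 fell by 1.58 (SE 0.09). The tribbles genes TRIB1 and TRIB2 thus moved in opposite directions in VCaP.

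Of 7 secretory genes linked to SPDEF and its relatives, 6 were tested in PC3 and 3 were called lower, beside 12.1% of all genes: MUC5AC, a gel-forming mucin (log2 −1.33, SE 0.26), TFF3, a trefoil peptide (−0.96, SE 0.14) and AGR2, a disulfide isomerase (−0.32, SE 0.09). The AGR2 call was lost under 5 of 14 alternatives. In VCaP 4 were tested and all were called, beside 45.8% of all genes: TFF3 (−1.62, SE 0.16), AGR2 (−0.84, SE 0.20) and CREB3L1 (−0.67, SE 0.19) were called lower, while GCNT3, a mucin-type glycosyltransferase, was called higher (2.17, SE 0.19) from 0.414 to 0.709 CPM to 2.47 to 2.78 CPM. The CREB3L1 call was lost without NSI replicate 2 (adjusted p 0.0557). TFF3 and AGR2, like SPDEF, were called lower in both lines. Whether SPDEF takes part in these changes was not tested.

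The genes whose 4 group means most resembled those of SPDEF were found by the root mean square distance between centred log2(CPM + 0.5) profiles, over 14662 genes with at least 5 CPM in 1 or more groups. They were FOXA1 itself (distance 0.321), RDH10, a retinol dehydrogenase (0.330), and ARG2, an arginase (0.505). RDH10 had group means of 75.0 and 47.1 CPM in PC3 NSI and siFOXA1 and of 184 and 15.6 CPM in VCaP. For ERG the nearest were RN7SKP80 (0.108), a copy of the 7SK RNA gene whose reads can be shared with other copies, KIF1A, a neuronal kinesin (0.129), and RPS4Y1 (0.148). With 4 points per gene, and with the line, kit and dose changing together, these distances describe the profiles and no more.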

How the data were processed

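The deposited tables held estimated counts per gene for 12 libraries. Per the file headers, the authors counted fragments over exons of the GENCODE 28 basic annotation on GRCh37 with featureCounts 2.0.0, dividing multi-mapping and overlapping fragments, without strand in PC3 and on the reverse strand in VCaP. Per the submitters' processing notes, STAR 2.7.3a was used. Deposited expected counts were not normalized, and 54.8% to 75.2% of nonzero values per library were not whole.

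Counts were rounded and tested with edgeR 4.0.16 in R 4.3.3 (TMM, filterByExpr, two-sided quasi-likelihood F test). Adjusted p-values are Benjamini-Hochberg values over all genes tested, called under 0.05. SE is the size of the log2 fold change divided by the square root of F. Each line was fitted on its 6 libraries, NSI levels on the 6 NSI libraries and the difference of effects on all 12. Biological coefficients of variation were 15.0% (PC3) and 9.90% (VCaP). No pair of replicates matched within sampling noise (chi-square per degree of freedom at least 9.80). Alternatives were other scalings, the DESeq2 1.42.0 Wald test, no filter, protein-coding genes only, a replicate block, fewer libraries and 1 fit of all 12.

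Titles share replicate numbers. Deviations of same-numbered libraries correlated at 0.41, 0.57 and 0.21 in PC3, where the numbers were taken to pair the libraries. With the replicate block 11297 genes were called in PC3, against 7149 without it, and the block left the number of the 10 genes called in PC3 at 5. Except where an alternative is named, the results above come from fits without the block, which leave this pairing out.

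The 10 genes and the lists were chosen with earlier results of these data known. Named genes were FOXA1, the 10 genes, TMPRSS2, other ETS genes called in either line or not tested, of each list up to 3 called rises and 3 called falls per line, and the 3 nearest profiles of ERG and SPDEF. Counting intervals are 95% exact and cover counting error only.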

Additional observations from a re-analysis of the deposited data

Results flagged for a closer look

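For 5 of the 10 ETS genes, those tested in both lines, the change with the FOXA1 siRNA differed between VCaP and PC3 by the contrast of the 2 effects in a model of the 12 libraries (edgeR quasi-likelihood, adjusted over 30425 genes). The VCaP change minus the PC3 change was 0.76 on the log2 scale for ETS1 (SE 0.21, adjusted p 0.0163) and 1.05 for ETS2 (SE 0.13, adjusted p 3.28e-05). It was 0.91 for ELF3 (SE 0.12, adjusted p 8.36e-05), −1.40 for EHF (SE 0.15, adjusted p 8.35e-06) and −1.68 for SPDEF (SE 0.15, adjusted p 1.40e-06). The same test called 22.2% of all genes. The lines also differed in siRNA dose, medium, kit and how far FOXA1 fell, and these cannot be told apart from the line.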

How the results depend on the processing

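Of 122 recomputed counts of genes called, 115 stayed within 1.5 times the main count, and of 1565 recomputed log2 fold changes of named genes 1454 kept their direction and their side of the threshold, 103 lost their call, 3 gained one and 5 changed sign. The 5 sign changes were all of ETV5 in PC3, a value near 0: 0.014 with upper-quartile factors, 0.045 with library size alone, and between −0.11 and 0.032 with 1 library left out, above 0 without NSI replicate 1, NSI replicate 3 or siFOXA1 replicate 2. The genes called in PC3 numbered 11297 with the replicate block, and 3945 (without siFOXA1 replicate 1) to 7592 with 1 library left out, 4602 without NSI replicate 3. In VCaP the ETS genes called numbered 2 to 5 with 1 library left out. Protein-coding genes alone, a smaller set, gave 14063 genes called between the lines. With library size alone, 2643 interactions were higher and 3880 lower, against 3427 and 3334. Apart from PC3's count of genes and the ELF3 call in VCaP, the replicate block changed no count by over 1.5 times and no call among the 10 genes. In VCaP the same-number correlations were 0.09, 0.04 and 0.35, too low to take the numbers as a pairing, and the replicate block called 11482 genes against 10501. Causes of these shifts were not tested. ERG in PC3 and ETV1, ETV4, ETV5 and FLI1 in VCaP had too few counts to be tested in the main fit of that line. Changes of these genes with siFOXA1 were not detectable there.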
